A study of Mus musculus with 12 samples.

Results

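Replication-dependent histone genes supply the H1, H2A, H2B, H3 and H4 proteins that package newly copied DNA, and their messages were followed here in B16F10 melanoma tumours treated with alisertib, navitoclax or both. The members were the rows of the expression table whose gene name starts with Hist1h, Hist2h, Hist3h or Hist4h, without those marked as pseudogenes by -ps in the name, which gave 69 of 50600 rows. They comprised 6 H1, 20 H2A, 18 H2B, 12 H3 and 13 H4 genes. By genomic cluster, 56 belonged to Hist1, 10 to Hist2, 2 to Hist3 and 1 to Hist4. RNA came from 12 tumour libraries, 3 in each of 4 groups. B16F10, a mouse melanoma line, was injected under the skin of C57Bl/6 mice at 50000 cells, and the genotype label reads Wild in every group. Daily oral gavage for 11 days delivered 25 mg/kg alisertib, an inhibitor of the mitotic kinase Aurora A, or 100 mg/kg navitoclax, an inhibitor of anti-apoptotic BCL-family proteins. The combination group received both drugs at these doses, and the vehicle group received the vehicles. The tumours all grew from the same cell line, and whole-tumour RNA also holds RNA of host cells.

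Histone cluster genes are transcribed mainly in S phase, when DNA is copied. Their messages usually end not in a poly(A) tail but in a conserved stem-loop, which is bound by the stem-loop binding protein Slbp and needed for processing, translation and decay. Such messages are lost from libraries selected for poly(A) RNA but are measured here, because ribosomal RNA was depleted from total RNA instead. Some members, among them Hist1h1c and Hist1h2bc, are also known to make tailed messages in cells that are not dividing.

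The stem-loop was searched for in the GENCODE M21 transcripts as a stem of 6 bases that starts with GG and pairs perfectly, with a loop of 4 bases that reads TTTN. It was found in 42 of the 67 members with a transcript, against 0.142% of 55450 genes with a transcript. In 21 of the 42, the annotated transcript ran on for over 100 bases after the stem-loop, as in Hist1h1e (1153) and Hist2h3c2 (377). Whether the measured messages ended at the stem-loop was not tested. Of the 25 members without a match, 18 had a transcript model shorter than 500 bases. All 31 matches in H1, H2A, H2B and H3 genes had the stem GGCTCT, whereas the 11 in H4 genes had GGCCCT in 9 and GGTCCT in 2. The following are shown because they belong to the most abundant H2A member and to members that passed a test below, with the stem and loop in capitals and flanking bases in lower case, 5′ to 3′.
Hist1h1e: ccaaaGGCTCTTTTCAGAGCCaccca
Hist2h2aa2: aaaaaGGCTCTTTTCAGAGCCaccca
Hist1h2bk: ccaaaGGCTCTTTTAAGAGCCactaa
Hist2h3c2: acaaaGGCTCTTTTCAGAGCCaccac
Hist1h4b: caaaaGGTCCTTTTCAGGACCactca
Hist1h4f: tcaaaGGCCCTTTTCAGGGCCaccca
The loop read TTTC in 33 matches, TTTA in 6, as in Hist1h2bk, and TTTT in 3.

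Promoters of 61 members, 250 bases before to 50 after the start, were taken from RefSeq (GRCm38.p6) and searched on both strands. The octamer ATTTGCAT, known as a target of the factor Pou2f1, stood in 7 of 17 H2A and 7 of 16 H2B promoters and in none of the 28 promoters of the other classes, against 1.74% of 32817 promoters. CCAAT stood in all 49 H1, H2A, H2B and H3 promoters and in 3 of 12 H4 promoters, against 37.4% of all promoters. TATAAA was present in 35 of the 61, against 13.6% of all. In 9 cases an H2A and an H2B gene pointed away from each other with overlapping promoter windows. One such promoter, shared by Hist1h2bk and Hist1h2ah, and that of Hist1h1e are printed because these 3 genes passed a test below, and capitals mark the motifs.
Hist1h2bk, plus strand, chr13:22035571-22035870: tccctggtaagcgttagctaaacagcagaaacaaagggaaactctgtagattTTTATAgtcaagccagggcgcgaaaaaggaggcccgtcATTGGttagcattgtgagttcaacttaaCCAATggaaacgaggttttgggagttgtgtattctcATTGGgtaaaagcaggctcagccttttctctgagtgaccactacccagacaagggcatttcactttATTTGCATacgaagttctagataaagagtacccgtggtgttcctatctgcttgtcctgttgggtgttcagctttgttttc
Hist1h1e, minus strand, chr13:23622509-23622808: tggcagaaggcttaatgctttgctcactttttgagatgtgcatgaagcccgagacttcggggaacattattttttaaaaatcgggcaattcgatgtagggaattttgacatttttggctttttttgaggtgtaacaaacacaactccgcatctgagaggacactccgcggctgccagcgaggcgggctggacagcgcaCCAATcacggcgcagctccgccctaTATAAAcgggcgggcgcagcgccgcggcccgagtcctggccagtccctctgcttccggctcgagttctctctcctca
By RefSeq, the starts of Hist1h2bk and Hist1h2ah lie 178 bases apart (302 between the gene models of GENCODE M21), and their windows share 277 bases. The first window holds the octamer, CCAAT at 3 places counting both strands, and TATAAA on the minus strand (printed as TTTATA), the strand of Hist1h2ah. The Hist1h1e window holds CCAAT and TATAAA, each at 1 place.

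The deposited values are read counts per gene scaled between libraries. Each library held 26828210 to 36745417 reads on annotated genes. Of these, 51134 to 254499 per library were on members. Vehicle 2 and combination 3 stood apart, with 63.3% and 73.7% of their reads on the ribosomal RNA loci Gm26917 and Gm42418. Alisertib 3 had 35.4%, and the other 9 libraries had 13.8 to 26.6%. Results are therefore also given without vehicle 2 and combination 3. All 10 melanocyte markers, among them Dct, Tyrp1 and Pmel, were detected, with summed values of 442925 to 705394 across the libraries.

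Of the 69 members, 64 had 3 or more libraries with values of 10 or higher and were tested. The other 5 were Hist1h1t and Hist1h2aa, which are testis genes, and Hist3h2ba, Hist2h2aa1 and Hist2h3c1. Over all libraries, Hist1h1t had 60 reads, Hist3h2ba 40, Hist2h2aa1 5 and Hist1h2aa 4. Hist2h3c1 had 0 reads, and 3 reads would correspond to a value of 2.29 to 10.9 depending on the library. A few members held most of the signal, since 10 of them made up 60.1% of the summed mean value and 20 made up 82.8%. On the scale of mean value per kilobase of exon, the leading members of each class were Hist2h2aa2 at 25423 for H2A, Hist1h4h at 17451 for H4, Hist1h1c at 14449 for H1, Hist2h3b at 9692 for H3 and Hist1h2bb at 4128 for H2B. Copies are hard to tell apart: in the median member, 49.5% of the windows of 50 bases also occur in another member's transcripts. Every window of Hist2h2aa2 recurs in Hist2h2aa1, which had 5 reads, and 63.5% of those of Hist2h3c2 recur in Hist2h3c1. How reads matching several genes were assigned is not given in the sources used here, so levels of single copies are uncertain. The same holds for the strand setting of the counting.

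The summed value of all 69 members was 87386, 91941 and 162023 in the alisertib libraries, 152741, 171526 and 201927 in the navitoclax libraries and 86610.2, 118527 and 185050 in the combination libraries, against 203497, 261292 and 156076 in the vehicle libraries. Alisertib 3 and combination 3 were the high libraries of their groups, and both lay within the vehicle range. As a percentage of the vehicle mean, alisertib stood at 54.98 ± 20.2, navitoclax at 84.8 ± 11.99 and the combination at 62.8 ± 24.3 (SD, n = 3 each). Without vehicle 2 and combination 3, these percentages were 63.3, 97.6 and 57.1. Alisertib libraries devoted 0.396, 0.435 and 0.729% of their reads outside the ribosomal loci to members, against 0.929, 1.08 and 0.708% in the vehicle libraries. In whole tumours, fewer cells in S phase and less histone RNA per cell cannot be told apart.

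**Figure D1:**
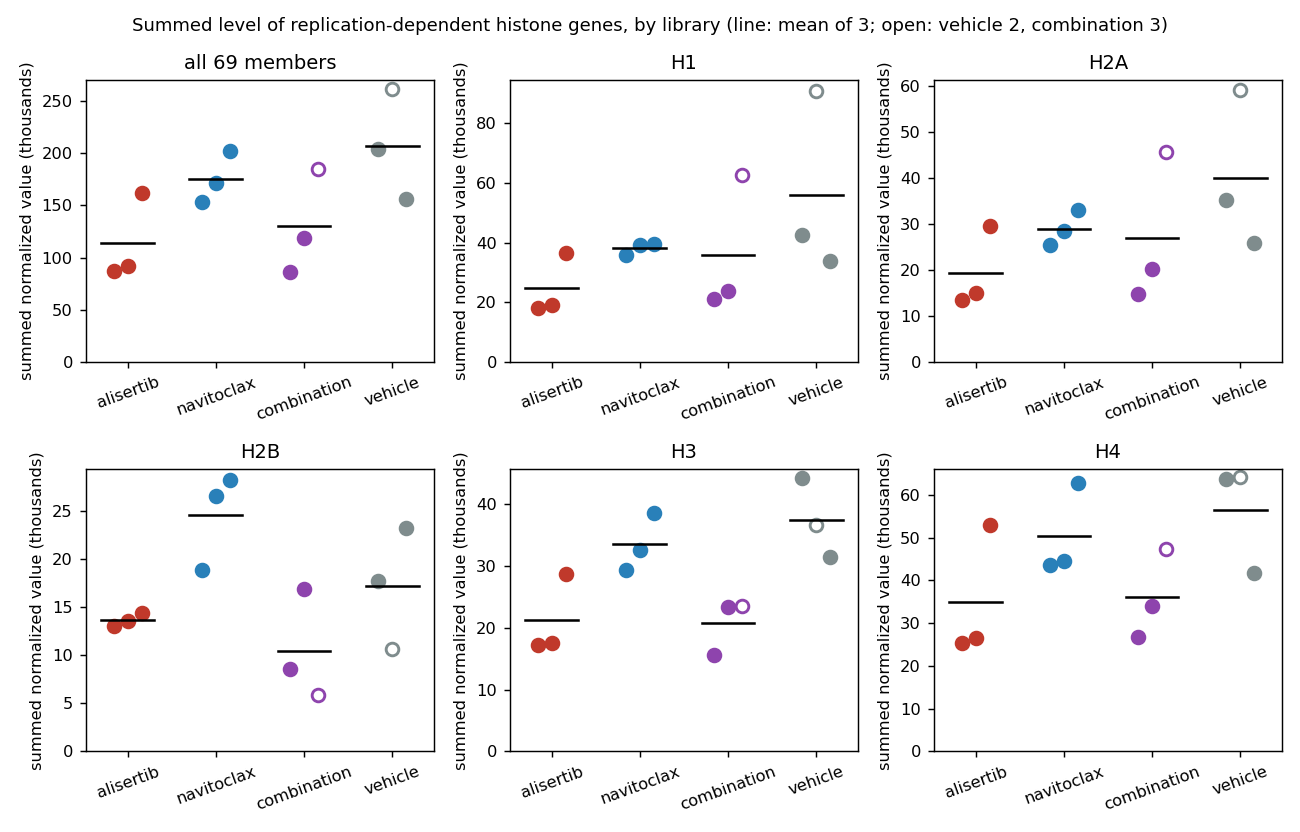
Summed normalized value (linear axis from 0) of all members and of each histone class in the 12 libraries. Points are libraries, lines are means of 3, and open points are vehicle 2 and combination 3, which are the highest of their groups for H1 and H2A and the lowest for H2B.

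Pooling the libraries given alisertib (alisertib and combination) against those not given it (navitoclax and vehicle), 60 of 64 tested members had a negative log2 difference, and 11 fell past an adjusted p of 0.05 while none rose (limma on log2(value + 2), Benjamini-Hochberg over 16993 genes). Of all tested genes, 1.88% fell in this comparison. The members' median log2 difference was -0.69, against -0.01 over all tested genes. The 11 were Hist1h1e, the H2A genes Hist1h2ad, Hist1h2ae, Hist1h2ag and Hist1h2ah, the H2B gene Hist1h2bk, the H3 genes Hist1h3g, Hist2h3b and Hist2h3c2, and the H4 genes Hist1h4b and Hist1h4f. Without vehicle 2 and combination 3, 16 members fell, 8 of them among the 11, where 4.19% of all tested genes fell, and the median was -0.72. Every library given alisertib lay below every other library for 5 members, namely Hist1h1e, Hist1h2bk, Hist2h3b, Hist2h3c2 and Hist1h4b, as for 1.6% of all tested genes. With vehicle 2 and combination 3 left out, 15 members had no overlap, as for 4.93% of all tested genes. When 1 library at a time was left out, Hist1h1e, Hist1h2bk and Hist2h3b passed in all 12 fits, Hist1h4b in 11 (limma adjusted p = 0.0501 without alisertib 2), Hist2h3c2 in 6 and the remaining 6 members in 2 to 4. The labels do not say that the libraries came from separate mice, so the p-values reflect the spread among these libraries, which may be technical.

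**Figure D2:**
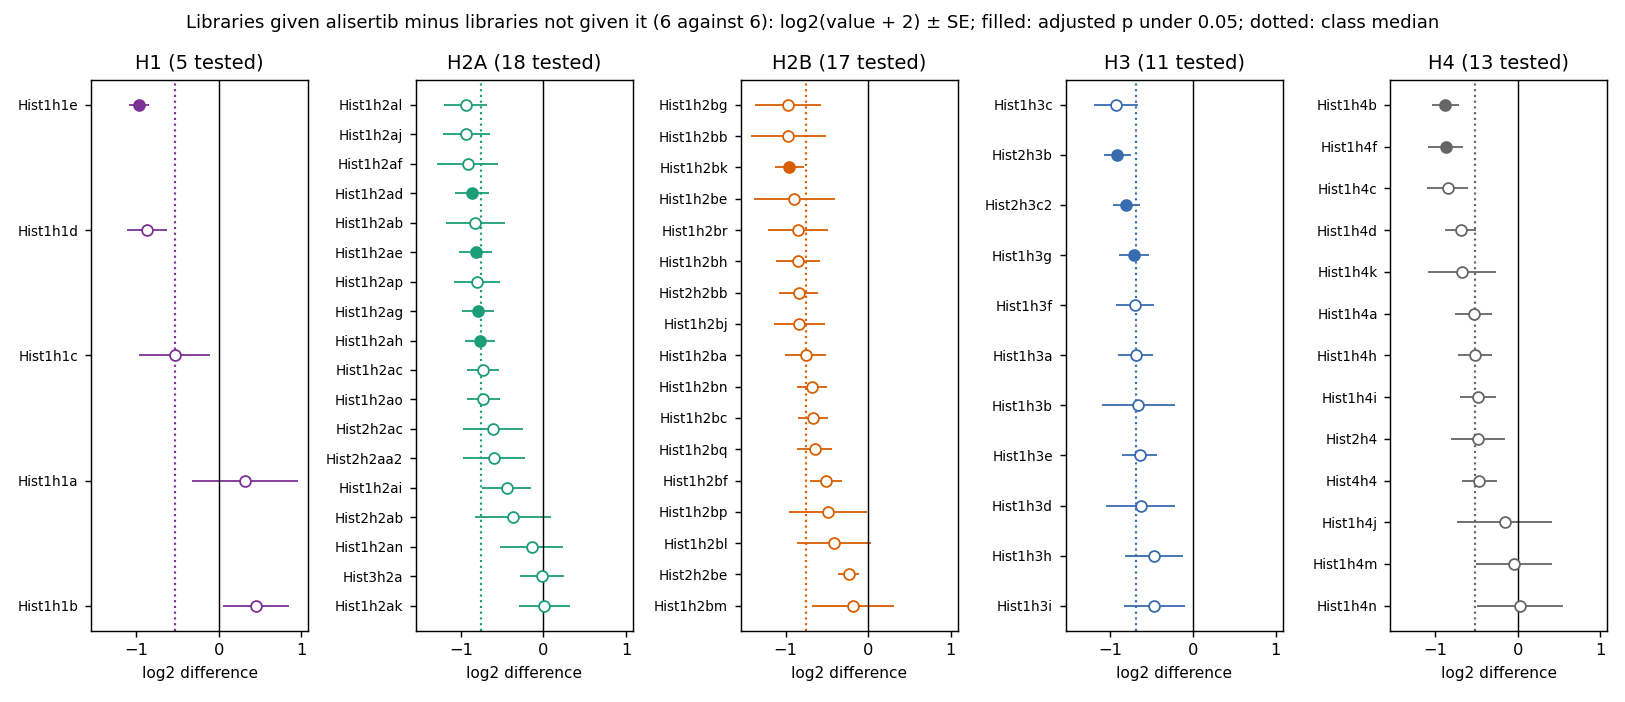
Log2 difference of each tested member between the 6 libraries given alisertib and the 6 not given it, on the log2(value + 2) scale, with its SE, by class. Filled points passed an adjusted p of 0.05, and dotted lines are class medians; nearly all points lie left of 0, and the 11 filled points lie between -0.96 and -0.72.

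Linker histone H1 binds the DNA that enters and leaves the nucleosome. Hist1h1e (chr13:23620629-23622558, minus strand, GENCODE M21) had values of 5709.7, 6154 and 8098 in the alisertib libraries, 12413, 12828 and 12023 in the navitoclax libraries and 5011, 6899.9 and 5906 in the combination libraries, against 13196, 12217 and 10298 in the vehicle libraries. The highest library given alisertib, alisertib 3, lay below the lowest of the others, vehicle 3. Its log2 difference was -0.96 ± 0.12 (SE; limma adjusted p = 0.00132), or -0.95 (limma adjusted p = 0.00271) without vehicle 2 and combination 3. An annotated model of Hist1h2be overlaps the 3′ end of Hist1h1e by 496 bases on the same strand. Hist1h1c, the most abundant H1 gene, had 9082, 9258 and 21570.4 in the alisertib libraries, 14526, 19578 and 19308 in the navitoclax libraries and 12729.7, 12394 and 48465 in the combination libraries, against 20452, 66116 and 17009 in the vehicle libraries. Vehicle 2 and combination 3 were each far above the rest of their groups, and Hist1h1c did not pass (log2 difference -0.53 ± 0.43, limma adjusted p = 0.583). Hist1h1d differed by -0.87 ± 0.24 (limma adjusted p = 0.0713) and passed without those libraries at -0.93 (limma adjusted p = 0.0210). The scarce Hist1h1a and Hist1h1b differed by 0.32 ± 0.64 and 0.45 ± 0.40 and did not pass (limma adjusted p = 0.861 and 0.629).

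Histone H3 carries many of the marks that define active and silent chromatin. Hist2h3b (chr3:96268654-96269141, plus strand) had 2797, 2881 and 4798 in the alisertib libraries, 5486, 5938 and 6675 in the navitoclax libraries and 2464, 3852 and 3105 in the combination libraries, against 7625, 5604 and 5528 in the vehicle libraries. The 6 libraries given alisertib did not overlap the other 6, and the log2 difference was -0.92 ± 0.17 (limma adjusted p = 0.0118). Hist2h3c2, another H3 gene of the Hist2 cluster, differed by -0.81 ± 0.17 (limma adjusted p = 0.0228), and Hist1h3g by -0.72 ± 0.18 (limma adjusted p = 0.0485). All 11 tested H3 members were on the negative side, with a class median of -0.69. Hist1h3c and Hist1h3e, also among the leading H3 members per kilobase, differed by -0.93 ± 0.27 and -0.65 ± 0.21 and did not pass (limma adjusted p = 0.0750 and 0.113). The summed H3 value was 17233, 17606 and 28781 in the alisertib libraries, 29308, 32663 and 38576 in the navitoclax libraries and 15593, 23439 and 23584 in the combination libraries, against 44279, 36634 and 31506 in the vehicle libraries. H3 was the class in which every library given alisertib lay below every library not given it, with all 12 libraries in.

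Histone H4 forms a tetramer with H3 at the nucleosome's centre. Hist1h4b (chr13:23757013-23757409, plus strand) had 1692, 1799.7 and 2769 in the alisertib libraries, 2990.3, 3285 and 4019 in the navitoclax libraries and 1478, 2297 and 1505 in the combination libraries, against 4189.5, 3136 and 3183 in the vehicle libraries. Alisertib 3 came closest to the libraries not given alisertib without reaching them, and the log2 difference was -0.88 ± 0.17 (limma adjusted p = 0.0147). Hist1h4f lay between 2103 and 4609.6, with a median of 2568, in the 6 libraries given alisertib, and between 3852 and 7170.2, with a median of 5204, in the other 6. These ranges overlapped, and the difference was -0.87 ± 0.21 (limma adjusted p = 0.0405). Hist1h4h and Hist1h4d, also leading H4 members, differed by -0.52 ± 0.21 and -0.69 ± 0.19 and did not pass (limma adjusted p = 0.197 and 0.0671). The H4 class median was -0.52, with 12 of 13 tested members negative.

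H2A and H2B pair to form dimers, and many of their genes stand back to back. Hist1h2bk (chr13:22035870-22036345, plus strand) had 989.8, 951 and 1291 in the alisertib libraries, 1567, 2089.8 and 2464 in the navitoclax libraries and 635, 1204 and 713 in the combination libraries, against 1854, 1382 and 1699 in the vehicle libraries. No library given alisertib reached the lowest of the others, and the log2 difference was -0.95 ± 0.18 (limma adjusted p = 0.0144). Its partner Hist1h2ah (chr13:22035164-22035568, minus strand), across the promoter printed above, had 370.2, 419 and 502 in the alisertib libraries, 665, 762 and 909 in the navitoclax libraries and 277, 561 and 445 in the combination libraries, against 762, 544 and 701 in the vehicle libraries. Vehicle 2 was the low library of its group and lay under combination 2, and the difference was -0.77 ± 0.18 (limma adjusted p = 0.0358). In 8 of the 9 divergent pairs both genes were tested, and in 7 both differences were negative. Negative differences were also found in 17 of 18 tested H2A and 17 of 17 tested H2B members, paired or not. Whether paired genes were closer to each other than unpaired ones was not tested. The median gap within a pair was 0.17 on the log2 scale, and the widest was between Hist1h2ak at 0.01 and Hist1h2bn at -0.68. Hist1h2ad, Hist1h2ae and Hist1h2ag differed by -0.86, -0.82 and -0.79 (limma adjusted p = 0.0418, 0.0417 and 0.0405). Of the H2A genes with the highest level per kilobase, Hist2h2aa2, Hist2h2ac, Hist1h2ab and Hist1h2af differed by -0.60, -0.61, -0.82 and -0.92 and did not pass (limma adjusted p = 0.441, 0.420, 0.247 and 0.198). Of the leading H2B genes, Hist1h2bb, Hist2h2bb, Hist1h2bg and Hist1h2bc differed by -0.97, -0.84, -0.97 and -0.67 and did not pass (limma adjusted p = 0.288, 0.0741, 0.217 and 0.0623). Class medians were -0.75 for H2A, with 17 of 18 tested members negative, and -0.76 for H2B, with 17 of 17 negative.

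Outside the Hist1 cluster, Hist2h3b and Hist2h3c2 were the members that passed. The H4 genes Hist2h4 and Hist4h4 differed by -0.48 ± 0.33 and -0.46 ± 0.21 and did not pass (limma adjusted p = 0.493 and 0.263). Hist2h2be, an H2B gene whose annotated exons span 2620 bases, had 539.6, 449 and 606 in the alisertib libraries, 529, 552 and 690.3 in the navitoclax libraries and 525, 474 and 391 in the combination libraries, against 652, 505 and 575 in the vehicle libraries. The libraries given alisertib overlapped the others, and the log2 difference was -0.24 ± 0.13 (limma adjusted p = 0.368). Hist2h2ab and Hist3h2a differed by -0.37 ± 0.46 and -0.02 ± 0.27 (limma adjusted p = 0.747 and 0.986), and the sign for Hist3h2a turned with the ribosomal share as a covariate. Hist1h2ba, a testis gene, was scarce, between 10.9 and 26.2 in the libraries given alisertib and between 20.3 and 49.0 in the others. It differed by -0.76 and did not pass (limma adjusted p = 0.121).

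By level, all 40 tested members with a mean value of at least 500 had a negative difference, with a median of -0.80, and the 11 that passed were among them. The 24 scarcer members had a median of -0.45 and ran from -0.94 to 0.45. Members with a stem-loop match and members without one had medians of -0.71 and -0.66. H2A and H2B genes with the octamer had a median of -0.82 over 13 tested, and those without it had -0.65 over 17. More of the genes without the octamer were among the scarcer members. Whether the octamer goes with the difference apart from level was not tested. GC content of the transcript had a Pearson r of -0.03 with the difference across 62 members that share the same libraries.

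**Figure D3:**
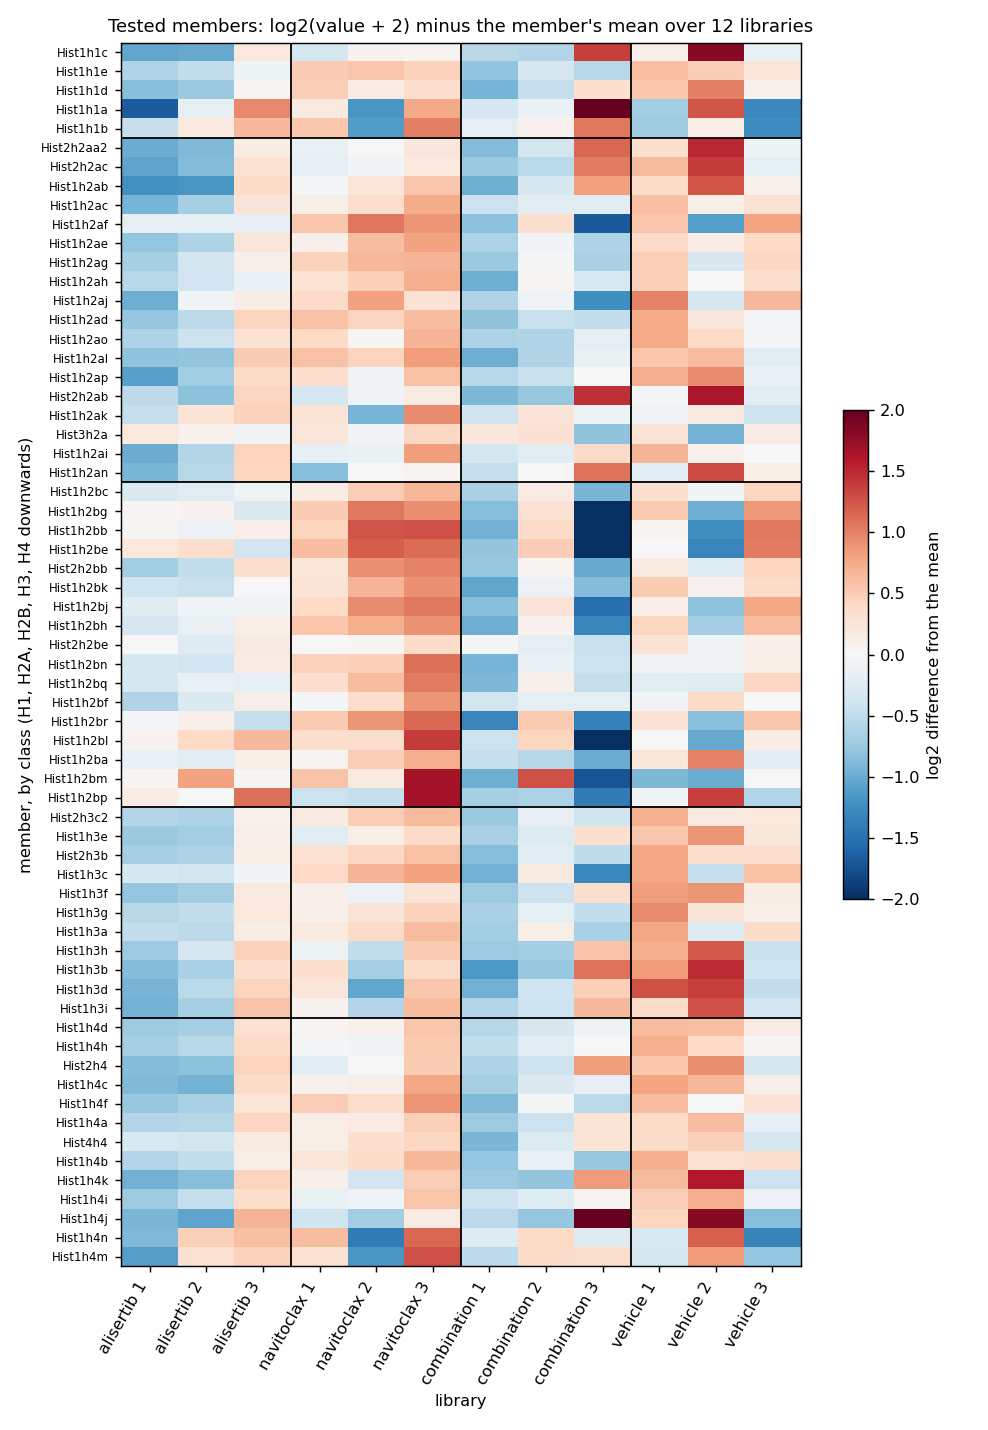
Log2(value + 2) of each tested member minus its mean over the 12 libraries, with members as rows by class and libraries as columns by treatment. Alisertib 1, alisertib 2 and combination 1 are mostly blue (below the mean), and H2B rows are darkest blue in combination 3.

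Against vehicle, alisertib alone gave a negative log2 difference for 55 of 64 members, with a median of -0.63. Of the 64, 1 member, Hist1h1e, fell past the threshold (log2 difference -0.85 ± 0.17, limma adjusted p = 0.0436), where 0.318% of all tested genes fell. That call was lost in 9 of the 12 fits that left out 1 library, those without alisertib 1 or 2, combination 1, or any navitoclax or vehicle library, with limma adjusted p up to 0.227. The combination against vehicle gave 57 negative differences and a median of -0.72. Here 2 members fell, Hist1h1e (-1.01 ± 0.17, limma adjusted p = 0.0115) and Hist1h4b (-1.01 ± 0.23, limma adjusted p = 0.0479), where 1.15% of all tested genes fell. Leaving out vehicle 1 took Hist1h1e to a limma adjusted p of 0.0704. Hist1h4b lost its call in 10 of 12 such fits, with the exception of those without alisertib 3 or combination 2, with limma adjusted p up to 0.192, and without vehicle 2 and combination 3 it was at 0.105. Without those libraries Hist1h1e lost its call against vehicle in the alisertib group (limma adjusted p = 0.0644).

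Adding alisertib to navitoclax gave 58 negative differences among the 64 members and a median of -0.70. H2B members, 17 of 17 negative, had a median of -1.29 with all libraries in. Combination 3 was the lowest library for H2B. The summed H2B value was 8533, 16826 and 5863 in the combination libraries, against 18791, 26557 and 28205 in the navitoclax libraries. The members that fell were Hist1h1e (-1.08 ± 0.17, limma adjusted p = 0.0125) and Hist1h2bk (-1.29 ± 0.25, limma adjusted p = 0.0388), where 0.224% of all tested genes fell. Without vehicle 2 and combination 3, Hist1h1e passed (limma adjusted p = 0.0200) and Hist1h2bk did not (limma adjusted p = 0.0588), and 62 of 64 differences were negative with a median of -0.81. Leaving out combination 1 or any navitoclax library put Hist1h1e at limma adjusted p = 0.0528 to 0.0696. Of the 12 fits that left out 1 library, Hist1h2bk passed only in those without combination 2 or vehicle 2.

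Navitoclax alone was not told apart from vehicle for any member: 0 of 64 passed with limma, and 2, Hist1h2bn and Hist1h2bq, had an unadjusted p under 0.05. Of all tested genes, 0.0647% passed and 6.37% had an unadjusted p under 0.05. The median was 0.07. By class it was 0.67 for H2B, with 17 of 17 positive, but -0.39 for H3 and -0.20 for H4, and for H2B 0.43, with 16 of 17 positive, without vehicle 2 and combination 3. Adding navitoclax to alisertib also moved 0 members past the threshold with limma and 0 at an unadjusted p under 0.05, where 0.0% of all tested genes passed and 3.51% had an unadjusted p under 0.05, and the median was -0.10. Here 16 of 17 H2B members were negative, with a median of -0.59, or -0.22 without vehicle 2 and combination 3. The pooled navitoclax comparison of 6 libraries against 6 called 0 members, 0 had an unadjusted p under 0.05, and of all tested genes 0.0% passed and 3.94% had an unadjusted p under 0.05. Its median was -0.03. DESeq2 and edgeR also called 0 members in these comparisons.

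Whether the alisertib difference changed with navitoclax was tested by the interaction, which called 0 of 64 members with limma, edgeR and DESeq2, where 0.00588% of all tested genes passed. An unadjusted p under 0.05 was found for 5 members, all H2B, and for 8.53% of all tested genes. H2B had a median interaction of -1.22 on the log2 scale and 17 of 17 members negative, against 0.26 for H4 and 0.45 for H3. Without vehicle 2 and combination 3 the H2B median was -0.69, with 17 of 17 negative, and those of H3 and H4 were -0.02 and -0.11. In that fit 0 members passed with limma while 1 had an unadjusted p under 0.05, as did 4.33% of all tested genes. H2B members are measured in the same libraries, so their shared sign does not count as replication. The median interaction over all 64 members was -0.23 with all libraries and 0.004 without alisertib 3. With all libraries, Hist1h2bn had the smallest p (-0.996 ± 0.365, unadjusted p = 0.0193, limma adjusted p = 0.436), chosen after its values were seen.

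The ribosomal-RNA-rich libraries carried their own pattern within the family. H2B made up 4.08% of the members' summed value in vehicle 2 and 3.17% in combination 3, against 8.67 to 15.5% in the other 10 libraries. H1 made up 34.8% and 33.9% there, against 19.5 to 24.4% elsewhere. On the log2 scale, vehicle 2 minus the other vehicle libraries had a median of -0.55 for H2B, 1.11 for H1 and 0.50 for H4. Combination 3 minus the other combination libraries had medians of -0.76, 1.10 and 0.38 in these classes. Across the 64 tested members the 2 sets of differences had a Pearson r of 0.84, and that of vehicle 2 with alisertib 3 was 0.76. GC content had a Pearson r of 0.07 with each of the differences in vehicle 2 and combination 3, over 62 members. Vehicle 2 and combination 3 also had the highest summed endothelial and fibroblast markers (114858 and 175923). The parts of the ribosomal share and of other cells in the pattern of these 2 libraries were not tested. With that share as a covariate in the pooled alisertib comparison, 41 members fell, where 10.3% of all tested genes fell.

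**Figure D4:**
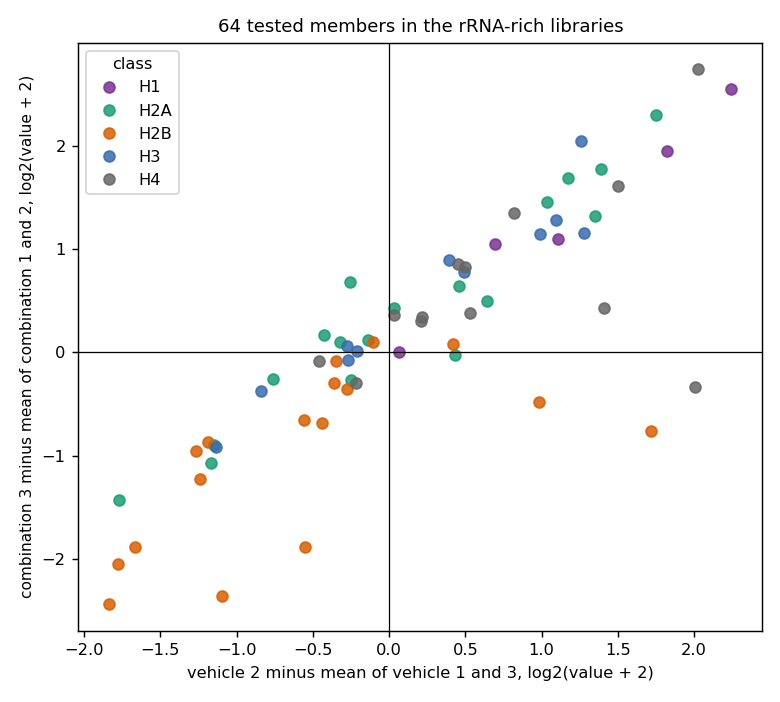
Log2 difference of vehicle 2 from vehicle 1 and 3 (horizontal) and of combination 3 from combination 1 and 2 (vertical), 1 point for each tested member, coloured by class. H1 points lie upper right and most H2B points lower left.

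Of the wider pathway, 25 genes of S phase and proliferation were tested, and 11 fell in the pooled alisertib comparison while none rose, with a median log2 difference of -0.46 and 25 of 25 negative. The share of all tested genes that fell there was 1.88%. Mcm5, a subunit of the replicative helicase, had 1928, 1680.4 and 2163 in the alisertib libraries, 3356, 3553 and 3156 in the navitoclax libraries and 1781, 2351 and 2016 in the combination libraries, against 2689, 2543 and 2958 in the vehicle libraries. The libraries given alisertib did not reach the others, and the difference was -0.61 ± 0.10 (limma adjusted p = 0.00648). Among the other S-phase genes that fell were Tyms of nucleotide synthesis, the polymerase subunits Pola1 and Pole, the replication factors Mcm2, Mcm10, Cdc6, Cdc45 and Gins1, and Mki67, a marker of cycling cells, by -0.80 to -0.45. With vehicle 2 and combination 3 left out, 15 fell, the same 11 with Mcm3, Mcm4, Mcm6 and Pcna, where 4.19% of all tested genes fell. Whether the histone members differed more than these genes was not tested.

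Histone chaperones carry newly made histones to DNA. Of 21 tested, with a median of -0.25, 4 fell and none rose in the pooled alisertib comparison, where 1.88% of all tested genes fell. The 4 were Chaf1b of the replication-coupled assembly factor (-0.77 ± 0.11, limma adjusted p = 0.00269), Nasp, which keeps a store of soluble H3 and H4 (-0.75 ± 0.18, limma adjusted p = 0.0397), Asf1b (-0.56 ± 0.13, limma adjusted p = 0.0380) and Ssrp1 of the FACT complex (-0.45 ± 0.10, limma adjusted p = 0.0312). Chaf1b was between 557 and 769 in the libraries given alisertib and between 993 and 1199 in the others, with no overlap. It also fell in the combination against vehicle and against navitoclax (limma adjusted p = 0.0346 and 0.0264). In the pooled comparison without vehicle 2 and combination 3, 9 chaperones fell, the same 4 with Nap1l1, Supt16, Hjurp, Chaf1a and Hat1, where 4.19% of all tested genes fell.

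Of 25 genes for transcription, processing and decay of histone messages, none passed in the pooled alisertib comparison, and 20 had a negative difference, with a median of -0.13. Slbp had 532, 534 and 840.3 in the alisertib libraries, 821, 856 and 843 in the navitoclax libraries and 615, 699 and 774 in the combination libraries, against 727, 980.1 and 711 in the vehicle libraries. Alisertib 3 and combination 3 lay inside the vehicle range, and the log2 difference was -0.32 ± 0.14 (limma adjusted p = 0.253). Casp8ap2, Ncbp1 and Coil, the others with the smallest p, differed by -0.48, -0.33 and -0.23 (limma adjusted p = 0.126, 0.216 and 0.296). Casp8ap2 and Ncbp1 passed without vehicle 2 and combination 3 (limma adjusted p = 0.0266 and 0.0455). Among 11 genes of histone variants outside the member list none passed, and the median was -0.31. H2afj, an H2A variant, differed by 1.05 ± 0.28 (limma adjusted p = 0.0625), and H3f3b, H2afx and H1f0 by -0.57, -0.52 and -0.52 (limma adjusted p = 0.107, 0.124 and 0.266). H2afj rose and H1f0 fell without vehicle 2 and combination 3 (limma adjusted p = 0.00709 and 0.0422).

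Other RNAs without a poly(A) tail went the other way in value. The 6 tested, Rn7sk, Rmrp, Rpph1, Terc, Rny1 and Rny3, all had a positive difference in the pooled alisertib comparison, with a median of 0.56, and none passed. Their summed value was highest in combination 3 and alisertib 3. Alisertib 1 and 2, at 440877 and 407486, lay within the vehicle range of 227304 to 568254. Rn7sk, which restrains transcription elongation, differed by 0.58 ± 0.22 (limma adjusted p = 0.185).

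**Figure D5:**
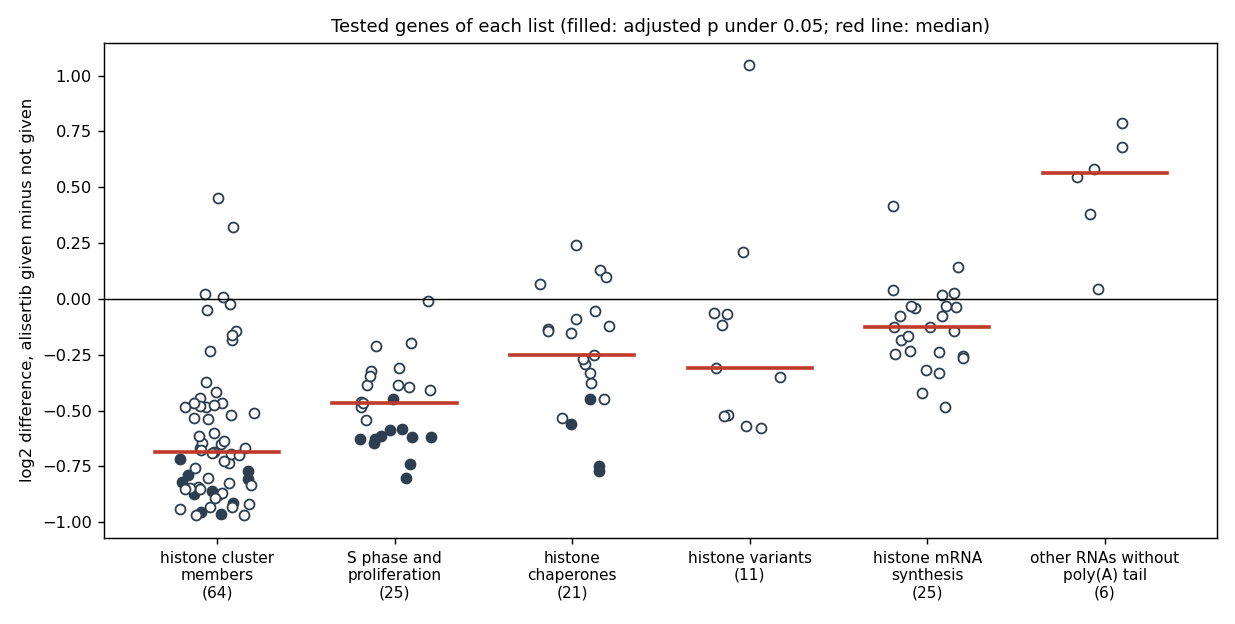
Log2 difference between libraries given alisertib and libraries not given it for tested genes of the histone clusters and of 5 other lists, with list medians as red lines. Filled points passed an adjusted p of 0.05; they occur among histone cluster, S-phase and chaperone genes, all below 0.

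Markers of other cell types also differed between libraries. The 10 macrophage markers summed to 3650.2 to 7919 in alisertib libraries, 1502 to 5858 in navitoclax libraries and 4479 to 11407 in combination libraries, against 1104 to 2605 in vehicle libraries. In the pooled alisertib comparison 2 of them, Mrc1 and Ms4a7, rose (log2 differences 1.61 and 1.56, limma adjusted p = 0.0338 and 0.0367), where 445 of all 16993 tested genes rose. Without vehicle 2 and combination 3 neither passed (limma adjusted p = 0.0774 and 0.0573) and Cd68 did (limma adjusted p = 0.0402), where 782 of all 16993 tested genes rose. The 7 erythroid markers summed to 1398 to 5987 with alisertib, 1938 to 12439 with navitoclax and 959.5 to 2479.6 with the combination, against 4313 to 35502 with vehicle, and none passed. Skeletal muscle markers summed to 101765 in navitoclax 1 alone. They were at 153 and 613 in navitoclax 2 and 3, within the 57.3 to 1158 of the other groups. The 10 lymphocyte markers summed to at most 125 in any library. The 10 endothelial and fibroblast markers summed to 175923 in combination 3 and 114858 in vehicle 2, against 8962 to 52043 in the other libraries. The 10 melanocyte markers, summing to 601602 to 664161 in alisertib libraries, 591351 to 692881 in navitoclax libraries and 514854 to 705394 in combination libraries, against 442925 to 588287 in vehicle libraries, had none that passed, and Gpr143 rose without vehicle 2 and combination 3 (log2 difference 0.40, limma adjusted p = 0.0445). No marker was at 0 in all libraries. The part of other cells in the histone differences was not tested.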

How the data were processed

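Tumour RNA was sequenced as 12 directional libraries after ribosomal RNA depletion, per the labels' protocols. Per the submitters' processing notes, HISAT2 2.0.6, featureCounts of Subread 1.5.1 and DESeq2 were used with builds GRCm38.p4 and mm10. The deposited values are normalized counts, a signal that the authors scaled per library. In every library 100% of values were whole multiples, within 0.001, of the value of 1 read, so reads could be recovered for count tests. Groups follow the treatment in the labels, and libraries were numbered in accession order, which pairs nothing. The column of navitoclax 3 differs in part from its sample's title and was matched by library code.

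Differences were tested on log2(value + 2) with limma 3.58.1 (R 4.3.3) across the 16993 genes reaching 10 in 3 or more libraries, with 1 mean per group over 12 libraries, trended robust moderation and Benjamini-Hochberg adjustment within each of 8 comparisons at 0.05. Fold changes understate the change of scarce genes. edgeR 4.0.16, DESeq2 1.42.0 and voom were run on recovered reads as alternatives. The test was tried on simulated data. Placement and transcripts came from GENCODE M21 for 67 members, of which 2 are annotated as pseudogenes, and placement of the other 2 came from RefSeq. Named members were those that passed, the 4 with the highest level per kilobase in each class, those outside Hist1, testis genes and genes with known tailed messages; of other lists, those that passed, otherwise up to 4 by smallest p. The members, lists and alternatives were chosen with earlier results of these data known. The values of 1 gene of the S-phase list are not reported here.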

Additional observations from a re-analysis of the deposited data

How the results depend on the processing

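No member was called higher under any setting. The count of members called lower in the pooled alisertib comparison was 11, and was 7 with edgeR, 25 with DESeq2, 46 with voom quality weights, 5 without a filter and 41 with the ribosomal share as covariate, and 3 to 19 when 1 library was left out: 3 without alisertib 2, 4 without alisertib 1, navitoclax 2, navitoclax 3, combination 1 or vehicle 1, 6 without navitoclax 1, 7 without vehicle 3, 17 without combination 2 and 19 without alisertib 3. Over all tested genes, 765 were called, against 1708 with DESeq2, 3031 with voom weights, 3310 with the covariate, 1494 without vehicle 2 and combination 3 and 314 to 763 when 1 library was left out. Hist1h1e, Hist1h2bk and Hist2h3b passed in each of the 12 fits that left out 1 library and in all 11 other alternatives. For alisertib against vehicle the count of 1 became 0 with edgeR, without a filter, without vehicle 2 and combination 3 and with only the groups compared, 2 with DESeq2, 23 with voom weights, 6 with the covariate and 0 to 1 when 1 library was left out. For the combination against vehicle the count of 2 became 1 with edgeR, without a filter, with pseudocount 0.5, with TMM scaling and without vehicle 2 and combination 3, 0 with only the groups compared, 6 with DESeq2, 28 with voom weights, 17 with the covariate and 0 to 4 when 1 library was left out. For the combination against navitoclax the count of 2 became 1 without a filter and without vehicle 2 and combination 3, 0 with only the groups compared, 18 with DESeq2, 33 with voom weights, 10 with the covariate and 0 to 12 when 1 library was left out. The share of all tested genes that fell moved too. With DESeq2, voom weights and the covariate it was 4.67, 8.39 and 10.3% in the pooled comparison, 1.87, 3.61 and 3.42% for alisertib against vehicle, 3.32, 5.76 and 7.89% for the combination against vehicle, and 2.48, 4.21 and 2.37% for the combination against navitoclax. With edgeR the share was 1.69% in the pooled comparison, 0.288% for alisertib against vehicle and 0.800% for the combination against vehicle. Without a filter these were 0.602, 0.192 and 0.475%. When 1 library was left out, it ran from 0.588 to 1.90% in the pooled comparison and from 0.118 to 0.424% for alisertib against vehicle. It ran from 0.241 to 0.995% for the combination against vehicle and from 0.00588 to 0.588% for the combination against navitoclax. The cause of these shifts was not tested. Median differences kept their sign in the 4 comparisons that add alisertib, and that of alisertib against vehicle ran from -0.95 (without alisertib 3) to -0.45 when 1 library was left out. The summed level with navitoclax was 97.6% of vehicle without vehicle 2, against 84.8% with all libraries, and ran from 75.5 to 97.6% when 1 library was left out. The difference of Hist1h1a in the pooled alisertib comparison turned negative with voom weights (-0.14), with the covariate (-0.017) and without combination 3 (-0.10), and ran from -0.10 to 0.69 when 1 library was left out. That of Hist3h2a turned positive with the covariate (0.12) and in 5 fits that left out 1 library, over a range of -0.22 to 0.16. No paired analysis was possible because the labels carry no replicate numbers. Sharing of reads between copies and 3 libraries per group limit what single members show.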

Other observations

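The row left out for its name, Hist3h2bb-ps, was low in the libraries rich in ribosomal RNA, as most H2B members were. It had 227, 228 and 167 in the alisertib libraries, 322, 461 and 358 in the navitoclax libraries and 114, 289 and 7.24 in the combination libraries, against 356, 29.4 and 317 in the vehicle libraries. Combination 3 and vehicle 2 were the lowest libraries. The combination 3 value lay below 10.9, the value of 3 reads in that library.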
